A study of Mus musculus with 6 samples.

Results

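Glycolysis and the cellular response to low oxygen were followed through 36 genes in stromal cells of mouse skeletal muscle, on day 3 after a toxin injury and in untreated muscle. The genes were taken from a list of symbols, with no threshold on their values, and all 36 were found among the 22483 genes of the expression table. They comprise 3 carriers of glucose or lactate, the enzymes from hexokinase to lactate dehydrogenase with their regulators, the oxygen-sensing factors Hif1a and Epas1 with 2 of their hydroxylases, 3 mitochondrial stress genes and 8 other genes known to be induced under hypoxia. The mice were young adult Swiss white animals. In the Injury state, muscles of the right hind limb had been injected with 20 uM cardiotoxin, a membrane-disrupting peptide of cobra venom. Cells were taken on day 3. In the Control state, cells came from the untreated contralateral muscle, so each control belongs to an animal that also carried an injured leg. The labels name the tibialis anterior, and the methods name it as the muscle resected. The results text of the study instead names the gastrocnemius and soleus for the acute injury. The number of animals behind each library is not given in the sources used here.

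In both states, the gate discarded leukocytes by CD45, myeloid cells by CD11b and endothelial cells by CD31. The remaining cells were sorted by CD140a (PDGF receptor alpha, gene Pdgfra) and Sca1 (gene Ly6a) into 3 subpopulations. They are labelled Sca1[-]/CD140a[+], Sca1[+]/CD140a[-] and Sca1[+]/CD140a[+] and written below as CD140a(+)/Sca1(-), CD140a(-)/Sca1(+) and CD140a(+)/Sca1(+). Each subpopulation has 1 library in each state, 6 in all, so injury was tested over the 3 pairs as replicates, and a change within 1 subpopulation has no replicate. All cells of both states had stood for hours in an incubator at body temperature between digestion and sorting, before RNA was taken.

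Glycolysis splits glucose into pyruvate, and cells with little oxygen reduce the pyruvate to lactate and export it. When oxygen is ample, prolyl hydroxylases mark the HIF alpha subunits for destruction, and when it is scarce HIF-1 alpha and HIF-2 alpha persist, pair with ARNT and raise transcription of glucose carriers, glycolytic enzymes and brakes on mitochondrial respiration. HIF-1 alpha is controlled mainly at the protein level, so that the RNA levels described below do not measure HIF activity. In injured muscle, stromal cells known as fibro-adipogenic progenitors proliferate and lay down matrix in the first days.

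Reads came from the 3' ends of transcripts, so a transcript gives about 1 read whatever its length, and levels are given as normalized counts, the number of reads scaled to a common library size. Depth ran between 2094353 and 14173590 reads per library, a 6.77-fold range. The injured CD140a(+)/Sca1(-) library was the shallowest and stood apart: 69.1% of the 22483 genes were listed at 0 in it, against 28.2% to 39.0% in the other 5, and 928 of 5274 genes that were well measured in those 5 were at 0 in it. Of the members, 11 were listed at 0 in this library, or 30.6%, against 55.3% of all 15532 genes tested. By the study's own check of the sort, enrichment was lowest in control CD140a(+)/Sca1(+) cells. The sort labels were checked here on their own genes. Pdgfra had 203, 335 and 1240 normalized counts in injured CD140a(+)/Sca1(-), CD140a(-)/Sca1(+) and CD140a(+)/Sca1(+) cells, against 33.6, 211 and 26.3 in the controls, so that among the controls the CD140a(-) library was the highest, against its label. Ly6a had 2.09, 1177 and 4099 in injured cells, against 70.4, 5850 and 253 in controls, and was lowest in the Sca1(-) library of each state. In the remainder of the text, 3 values for a state always stand in the order CD140a(+)/Sca1(-), CD140a(-)/Sca1(+), CD140a(+)/Sca1(+).

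Injury and control were compared over the 3 pairs by limma across 15532 genes, and a gene was said to have risen or fallen at an unadjusted p under 0.05 with at least a 3-fold change, the size the study used. By this measure 3 of the 36 members rose, Eno1, Hif1a and Slc16a3, or 8.33% of them, where 2.3% of all genes tested rose. Members that fell were 2, Epas1 and Egln3, or 5.56%, where 3.46% of all genes fell. After Benjamini-Hochberg adjustment over all genes, limma called none of the members and none of the 15532 genes at an adjusted p under 0.05, and the lowest adjusted p was 0.429 among members and 0.192 among all genes. Unadjusted, 6 members and 1241 genes had a p under 0.05. The median log2 change over the members was -0.19, beside -0.33 over all genes tested. The list did not move as a block: 11 members had a positive and 25 a negative change. The median over all genes was negative too, so negative signs were not particular to the members. Directions differed between subpopulations for 20 members. In all 3 subpopulations 7 members were higher after injury, or 19.4%, beside 7.92% of all genes, and 9 members were lower, or 25.0%, beside 20.2%. Members thus kept a common direction more often than all genes did, but the shares are not on equal terms. A gene at 0 in the injured CD140a(+)/Sca1(-) library cannot be higher in all 3 subpopulations. That held for 30.6% of members, beside 55.3% of all genes. The difference was not tested.

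**Figure D1:**
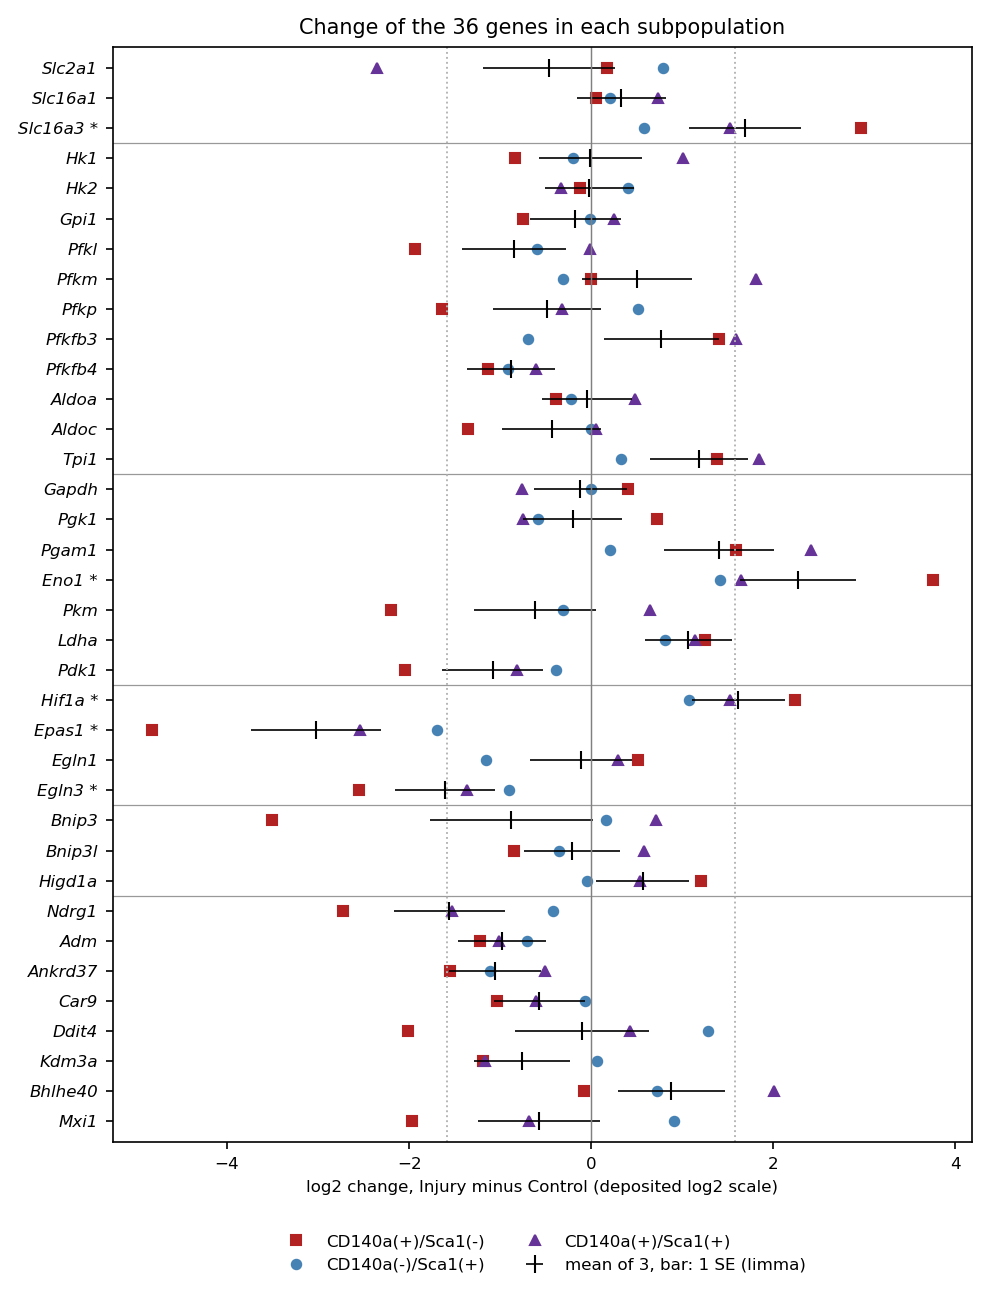
Log2 change of each of the 36 members, injury minus control, grouped by role, with the limma standard error as bars and the change within each subpopulation as points (1 library against 1). Eno1, Hif1a and Slc16a3 lie farthest to the right among the estimates and Epas1 farthest to the left, at -3.02.

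The HIF alpha subunits moved in opposite directions. Hif1a, the oxygen-regulated subunit of HIF-1, lies on chromosome 12 (GRCm38, 73901375 to 73947530, plus strand). It had 2369, 3744 and 949.5 normalized counts in injured cells, against 493, 1767 and 322 in controls. Each injured library was above its own control, by 4.81, 2.12 and 2.95 times, although the control CD140a(-)/Sca1(+) library lay above the injured CD140a(+)/Sca1(+) library, so the states overlapped. The level averaged 2354 ± 1397 after injury and 860.4 ± 789.5 in control (SD, n = 3 each), and the log2 change was 1.61 ± 0.51 (SE), with an adjusted p of 0.544 in limma. Its change lies close to the 3-fold limit, and in 9 of 12 alternative analyses it missed the limit on fold or on p, also without any 1 of the pairs, where the change was 1.30, 1.88 and 1.66.

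Epas1, which encodes HIF-2 alpha and is known for its high expression in endothelium, lies on chromosome 17 (86753700 to 86833410, plus strand). It had 0, 51.6 and 47.7 normalized counts in injured cells, against 157, 192 and 331 in controls. All 3 injured libraries lay below all 3 controls. Injured cells held 0.268 and 0.144 times the control level in CD140a(-)/Sca1(+) and CD140a(+)/Sca1(+) cells. In CD140a(+)/Sca1(-) cells no read was found after injury, at least 53.2-fold lower if 3 reads in that library are taken as the floor. That bound covers read sampling only, because 928 of 5274 genes well measured in the other libraries were also at 0 there. The log2 change was -3.02 ± 0.71 (SE), with an adjusted p of 0.429 in limma, the lowest of the members. It was also past the threshold in all 12 alternatives, with changes between -4.32 and -2.12. Without the CD140a(+)/Sca1(-) pair the change was -2.12.

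Endothelial markers fell in the same libraries. Of the 10 markers listed, 8 fell and all 10 were lower after injury in every subpopulation. Their summed level was 117 to 478 normalized counts after injury, against 3202 to 31936 in control. Fabp4 made up most of the control sum, with 2590, 2318 and 29146. In the injured CD140a(+)/Sca1(-) library 8 of the 10 markers were at 0. Among the defining ones, Pecam1 had 0, 1.39 and 1.51 in injured cells, against 19.8, 47.4 and 105 in controls. Their part in the Epas1 result was not tested, and in sorted bulk samples fewer cells of a type and less RNA per cell cannot be told apart.

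Weighed against each other within a library, Hif1a exceeded Epas1 by at least 805, 72.6 and 19.9 times after injury, against 3.14, 9.19 and 0.972 times in control. In control CD140a(+)/Sca1(+) cells both transcripts were therefore close to equal, and in every injured library Hif1a was the higher.

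The prolyl hydroxylases differed from each other too. Egln3 encodes PHD3, a hydroxylase that HIF itself induces, and lies on chromosome 12 (54178981 to 54203860, minus strand). It had 0, 10.2 and 10.1 normalized counts in injured cells, against 23.8, 27.2 and 40.6 in controls. The states did not overlap, and the mean was 6.77 ± 5.86 after injury and 30.5 ± 8.90 in control (SD, n = 3 each). The log2 change was -1.60 ± 0.55 (SE), with an adjusted p of 0.568 in limma. The level was 0.376 and 0.248 times the control in CD140a(-)/Sca1(+) and CD140a(+)/Sca1(+) cells. In CD140a(+)/Sca1(-) cells it was at 0 after injury, at least 8.07-fold lower by the same floor of 3 reads, which covers read sampling only. It fell past the threshold narrowly, and leaving out any 1 pair took it below, with a change of -1.13 without the CD140a(+)/Sca1(-) pair. Egln1, which encodes PHD2, the main oxygen sensor, had 152, 40.6 and 95.4 after injury, against 103, 104 and 75.9 in control. It was higher in a pair of the subpopulations and lower in CD140a(-)/Sca1(+) cells, with a log2 change of -0.12 ± 0.56 (SE).

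**Figure D2:**
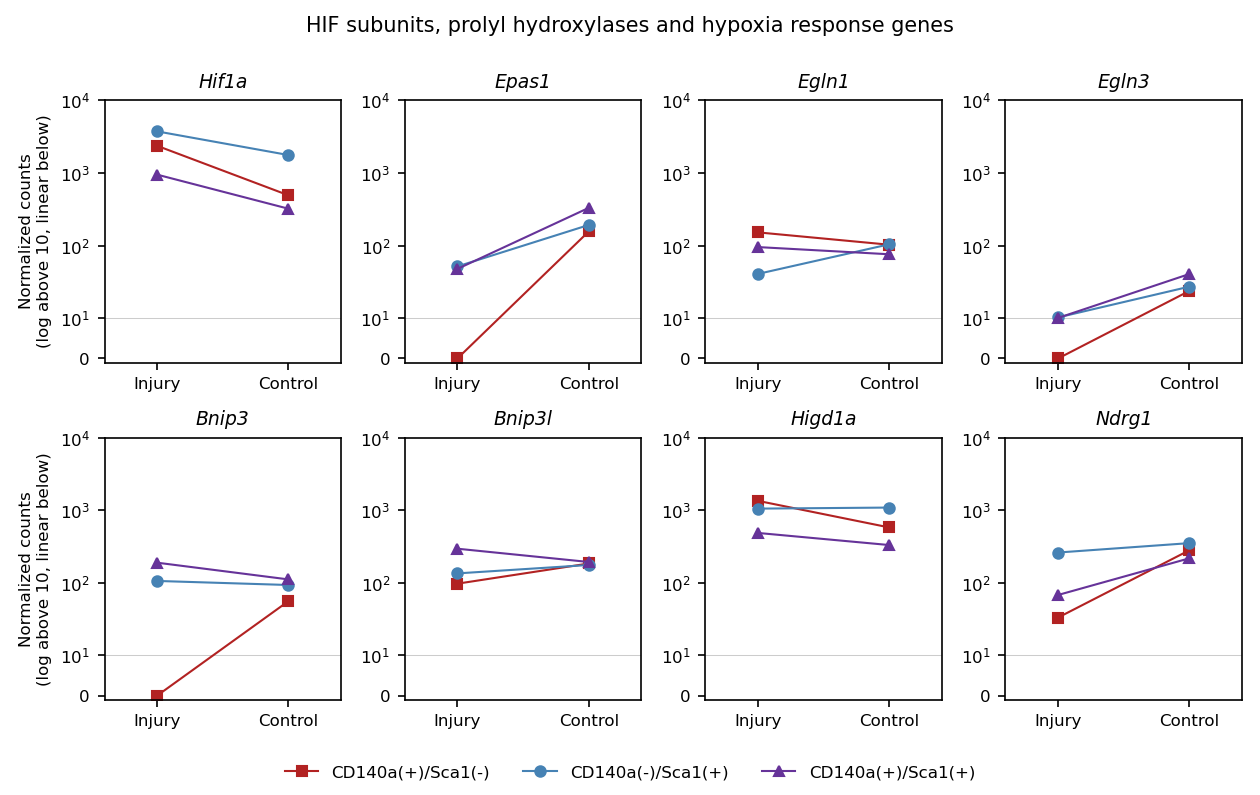
Normalized counts of oxygen-sensing and hypoxia-responsive members in the 6 libraries, Injury left and Control right, on an axis that is logarithmic above 10 and linear below, with a line joining the 2 libraries of each subpopulation. Hif1a lies higher after injury in each subpopulation (2369, 3744 and 949.5, against 493, 1767 and 322), whereas Epas1 and Egln3 lie lower in each.

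Promoter sequence was looked at for the members past the threshold and for Ldha, the enzyme whose promoter is a textbook HIF target, to show how often the core letters bound by HIF occur there. The windows are RefSeq sequence of GRCm38.p6, 250 bases before to 50 bases after the start, 5′ to 3′ on the gene's strand. Matches to ACGTG or GCGTG on either strand are in capitals, and CACGTG, which reads the same on both strands, counts on each. Windows were found for 32 of the 36 members, Epas1 not among them. The start used for Hif1a, Slc16a3 and Ldha lies inside the gene boundaries given elsewhere in the text.
Hif1a (chr12:73907617-73907916, plus strand): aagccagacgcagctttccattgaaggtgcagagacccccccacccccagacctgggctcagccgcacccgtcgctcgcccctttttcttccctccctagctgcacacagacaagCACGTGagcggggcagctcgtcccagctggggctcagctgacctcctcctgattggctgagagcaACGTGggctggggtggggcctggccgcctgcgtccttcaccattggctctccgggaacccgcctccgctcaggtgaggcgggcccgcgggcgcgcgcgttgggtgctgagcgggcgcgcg
Egln3 (chr12:54203825-54204124, minus strand): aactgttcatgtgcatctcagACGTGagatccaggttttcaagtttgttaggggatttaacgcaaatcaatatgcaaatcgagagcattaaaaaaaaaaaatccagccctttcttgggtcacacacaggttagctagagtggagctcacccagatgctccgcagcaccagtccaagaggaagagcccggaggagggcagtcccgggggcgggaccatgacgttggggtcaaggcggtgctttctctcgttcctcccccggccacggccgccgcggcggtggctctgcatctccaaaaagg
Eno1 (chr4:150236458-150236757, plus strand): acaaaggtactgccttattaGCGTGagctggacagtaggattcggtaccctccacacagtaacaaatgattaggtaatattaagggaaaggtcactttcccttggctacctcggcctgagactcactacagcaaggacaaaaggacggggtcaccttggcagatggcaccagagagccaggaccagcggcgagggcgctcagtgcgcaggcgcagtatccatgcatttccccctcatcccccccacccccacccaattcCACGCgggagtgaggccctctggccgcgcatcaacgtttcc
Slc16a3 (chr11:120948817-120949116, plus strand): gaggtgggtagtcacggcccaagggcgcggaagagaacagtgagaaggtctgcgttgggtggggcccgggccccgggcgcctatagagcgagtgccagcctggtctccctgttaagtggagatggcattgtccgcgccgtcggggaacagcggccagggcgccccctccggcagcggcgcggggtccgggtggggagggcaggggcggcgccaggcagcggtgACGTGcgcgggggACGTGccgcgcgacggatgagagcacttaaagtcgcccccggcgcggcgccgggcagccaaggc
Ldha (chr7:46845554-46845853, plus strand): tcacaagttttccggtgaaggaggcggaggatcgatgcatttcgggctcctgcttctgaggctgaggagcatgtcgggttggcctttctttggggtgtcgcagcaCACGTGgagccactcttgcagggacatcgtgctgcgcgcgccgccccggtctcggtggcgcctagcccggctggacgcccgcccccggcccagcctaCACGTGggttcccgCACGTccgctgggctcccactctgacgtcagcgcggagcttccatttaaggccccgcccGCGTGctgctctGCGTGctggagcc

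Ldha held 7 matches, Hif1a 3, Eno1 and Slc16a3 2 each and Egln3 1. Over the members, 26 of 32 windows (81.3%) held at least 1 match, beside 43.8% of 27025 genes with a window, and 20 (62.5%) held at least 2, beside 20.8%. Members were listed in part as genes known to be induced under hypoxia, and base composition was not matched, so these shares only describe the list. A match is a stretch of letters and not a measured binding site, and genes that rose (Eno1) and genes that fell (Egln3) both carried it.

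The only enzyme of the list that rose past the threshold was enolase. Eno1, which encodes alpha enolase and forms phosphoenolpyruvate, lies on chromosome 4 (150236721 to 150248879, plus strand). It had 516, 155 and 133 normalized counts in injured cells, against 28.1, 51.1 and 35.2 in controls. Every injured library lay above every control, by 18.3, 3.03 and 3.79 times within the subpopulations, and the mean was 268 ± 215 after injury and 38.1 ± 11.8 in control (SD, n = 3 each). The log2 change was 2.27 ± 0.64 (SE), with an adjusted p of 0.489 in limma. Without the CD140a(+)/Sca1(-) pair it was 1.53, just under 3-fold. Its values were not whole reads, as arises when reads are divided between genes that share sequence, so its level is uncertain to that extent.

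Its neighbors along the lower pathway gave smaller or mixed values. Ldha, lactate dehydrogenase A, on chromosome 7 (46841475 to 46855627, plus strand), had 242, 242 and 527 after injury, against 95.5, 133 and 233 in control. Each injured library exceeded each control, and the changes within the subpopulations were close to each other, at 2.54, 1.82 and 2.26 times. The log2 change of 1.07 ± 0.48 (SE) missed both limits of the threshold, with an adjusted p of 0.641 in limma. Eno1 and Ldha were the members that lay higher after injury with no overlap, 5.56% of the 36, beside 4.18% of all genes tested.

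Pgam1, phosphoglycerate mutase, had 423, 116 and 607 after injury, against 133, 99.0 and 104 in control. It was higher in each subpopulation, with a log2 change of 1.40 ± 0.60 (SE) that did not pass (limma, adjusted p = 0.634). Tpi1, triose phosphate isomerase, had 564, 197 and 468 after injury, against 209, 154 and 122 in control, and a log2 change of 1.19 ± 0.54 (SE; limma, adjusted p = 0.644). Both were more than 2.5 times higher in each CD140a(+) subpopulation and within 1.3 times of control in CD140a(-)/Sca1(+) cells.

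Gapdh, Pgk1 and Pkm did not move together with them. Gapdh, the dehydrogenase often used as a reference gene, had 401, 184 and 340.3 after injury, against 299.9, 183 and 586 in control. Pgk1, phosphoglycerate kinase, had 842, 283 and 379 after injury, against 504, 430.4 and 646 in control. Each was higher after injury in CD140a(+)/Sca1(-) cells and lower in CD140a(+)/Sca1(+) cells. Pkm, pyruvate kinase of muscle type, had 40.4, 182 and 352 after injury, against 225, 228 and 221 in control, so that its controls were almost level while its injured libraries spread widely. Their log2 changes were -0.12 ± 0.51, -0.20 ± 0.54 and -0.62 ± 0.67 (SE). Pdk1, the kinase that keeps pyruvate out of mitochondria, had 0, 23.7 and 15.4 after injury, against 14.1, 33.9 and 34.4 in control, lower in each subpopulation, with a log2 change of -1.08 ± 0.55 (SE; limma, adjusted p = 0.655).

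**Figure D3:**
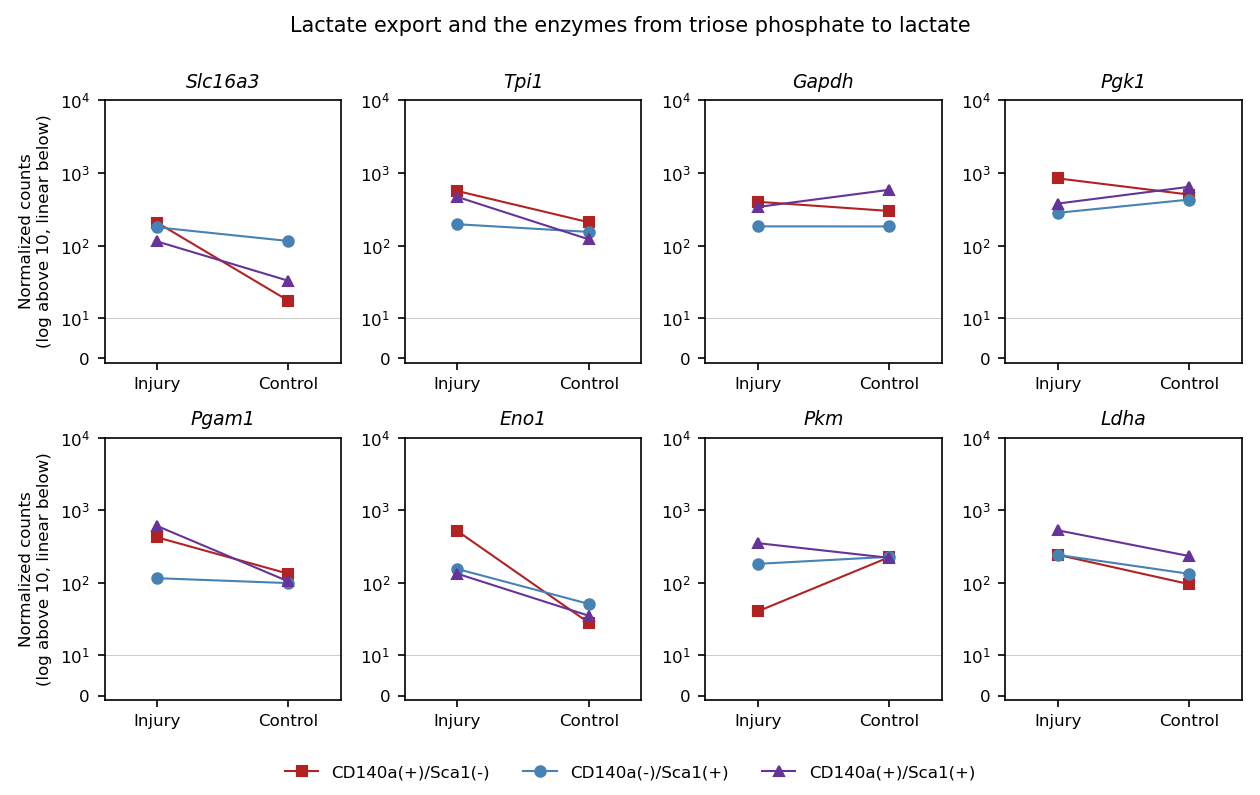
Normalized counts of the lactate exporter Slc16a3 and of the enzymes from triose phosphate to lactate in the 6 libraries, Injury left and Control right, on an axis that is logarithmic above 10 and linear below, with a line for each subpopulation. Lines of Eno1 and Ldha fall toward Control without overlap between the states, while those of Gapdh and Pgk1 cross.

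The 15 enzymes from hexokinase to lactate dehydrogenase were also summed. Together they made up 0.252%, 0.236% and 0.234% of normalized counts in injured cells, against 0.206%, 0.194% and 0.190% in controls. The share was higher after injury in each subpopulation, without overlap, but not through the same genes. In CD140a(-)/Sca1(+) cells the sum was 4896 normalized counts after injury, against 4354 in control, and Hk2 alone had 2113, against 1596. Hk2 was lower after injury in the other subpopulations. The median log2 change over the 15 was -0.04. Fibroblast and progenitor markers, as a sum, were higher in the same injured libraries in which the share, Eno1, Hif1a and Slc16a3 were higher. Of the 10 markers listed 5 rose, Pdgfra, Lum, Col1a1, Col3a1 and Dpt, none fell and 6 were higher in every subpopulation. Ly6a, Gsn and Cd34 had negative log2 changes, of -0.43, -0.84 and -0.03. The summed level of the 10 was 27909.9 to 48141 normalized counts after injury, against 2879 to 14629.6 in control. Most of it after injury came from Col1a1, Col3a1 and Dcn, and Pi16 was at 0 in the injured CD140a(+)/Sca1(-) library. The part of the markers in these results was not tested.

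Of the carriers, the lactate exporter moved. Slc16a3, which encodes MCT4, the exporter of highly glycolytic cells, lies on chromosome 11 (120948480 to 120960868, plus strand). It had 207, 179 and 114 normalized counts after injury, against 17.4, 116 and 32.7 in control. Injured cells were higher by 11.9, 1.54 and 3.49 times, with the injured CD140a(+)/Sca1(+) library just under the control CD140a(-)/Sca1(+) library, so that the states overlapped. The log2 change was 1.69 ± 0.62 (SE), with an adjusted p of 0.586 in limma, and it no longer passed without the CD140a(+)/Sca1(-) pair (1.05) or without the CD140a(+)/Sca1(+) pair (1.77). Slc16a1, which encodes the broadly expressed MCT1, had 386, 194 and 186 after injury, against 373, 166 and 108 in control, with a log2 change of 0.33 ± 0.49 (SE). The ratio of Slc16a3 to Slc16a1 was 0.537, 0.920 and 0.613 after injury, against 0.0466, 0.696 and 0.304 in control. MCT1 remained the more abundant transcript in every library. Slc2a1, the glucose carrier GLUT1, had 724, 519 and 273 after injury, against 640.5, 294 and 1442 in control. It was 0.190 times the control in CD140a(+)/Sca1(+) cells but higher than control in the other subpopulations, by 1.13 and 1.76 times.

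Upper glycolysis showed no member past the threshold. Hk2, the inducible hexokinase, was on average the most abundant of these genes, with 1541, 2113 and 589.8 after injury, against 1683, 1596 and 746 in control. Hk1, the housekeeping form, had 145, 516 and 626 after injury, against 269, 594 and 305 in control. Hk2 exceeded Hk1 by 10.6, 4.10 and 0.942 times after injury, against 6.26, 2.69 and 2.44 times in control, so the order of the 2 forms turned in injured CD140a(+)/Sca1(+) cells. Gpi1, the isomerase, stayed between 301 and 591 in all libraries, with a log2 change of -0.17 ± 0.50 (SE). Aldoa, the main aldolase, had 117, 67.9 and 159 after injury, against 156, 81.0 and 111 in control, a log2 change of -0.04 ± 0.50 (SE). The symbol Aldoa stands on 2 identifiers, and only the one with the most reads was used.

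Phosphofructokinase, the committed step, is encoded by a trio of genes. Pfkp, the platelet form, had 38.3, 284 and 185 after injury, against 142, 195 and 235 in control. Pfkl, the liver form, had 4.91, 76.2 and 93.8 after injury, against 43.7, 121 and 94.5 in control, with a log2 change of -0.85 ± 0.58 (SE). Pfkm, the form that dominates in muscle fibers, had 0, 0.585 and 10.6 after injury, against 0, 1.69 and 0 in control. Pfkp was above Pfkl in every library, by 1.98 to 7.80 times after injury and by 1.61 to 3.25 times in control, and Pfkm was the lowest throughout. Muscle fiber markers were likewise low: their sum was 17.0 to 125 normalized counts after injury, against 28.0 to 78.4 in control. The 125, in the injured CD140a(+)/Sca1(-) library, came from Atp2a1 alone, which had 1.09 in the control of that subpopulation. None of the 11 tested passed the threshold, and Pgam2, the fiber form of phosphoglycerate mutase, was at 0 in all 6 libraries.

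Pfkfb3 and Pfkfb4 make the activator of phosphofructokinase and are induced by HIF. Pfkfb3 had 199, 283 and 171 after injury, against 68.0, 464 and 49.4 in control, higher in both CD140a(+) subpopulations and lower in CD140a(-)/Sca1(+) cells. Pfkfb4 had 0, 0 and 1.06 after injury, against 3.85, 2.44 and 4.41 in control, a difference that rests on at most 13 reads in a library. Aldoc, the brain aldolase, was as rare, with 0, 0 and 1.02 after injury, against 5.59, 0 and 0.853 in control.

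Most other hypoxia-responsive members were lower after injury or mixed. Ndrg1, a stress-response gene used as a hypoxia marker, had 33.2, 261 and 67.9 after injury, against 281, 352 and 218 in control. It was lower in each subpopulation, with a log2 change of -1.56 ± 0.61 (SE; limma, adjusted p = 0.609), past the limit on p and just short of 3-fold. Adm, the vasodilator adrenomedullin, had 0, 15.6 and 3.18 after injury, against 4.50, 31.7 and 14.1 in control. Ankrd37 had 0, 0 and 3.13 after injury, against 7.59, 3.69 and 7.39 in control. Car9, the carbonic anhydrase that exports acid from hypoxic cells, was barely detected, with 0, 1.90 and 1.06 after injury, against 3.21, 2.25 and 4.41 in control. These 4 were lower in every subpopulation, and none passed the threshold. With Pfkfb4, Epas1 and Egln3, Ankrd37 and Car9 made 5 members that lay lower after injury without overlap, or 13.9%, beside 11.2% of all genes, and 3 of the 5 had low counts.

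Kdm3a, a histone demethylase induced by HIF, had 35.5, 54.5 and 43.6 after injury, against 94.5, 51.4 and 111 in control. Bhlhe40, a transcriptional repressor of the clock and hypoxia responses, had 62.9, 231 and 187 after injury, against 67.1, 136 and 38.3 in control, and a log2 change of 0.88 ± 0.59 (SE). Ddit4, an inhibitor of mTORC1 also known as REDD1, had 0, 55.1 and 5.83 after injury, against 13.5, 16.7 and 2.65 in control. Mxi1, an antagonist of MYC, had 3.95, 49.1 and 29.8 after injury, against 40.0, 21.3 and 54.1 in control. After injury Ddit4 and Mxi1 were both higher in CD140a(-)/Sca1(+) cells and lower in CD140a(+)/Sca1(-) cells, with no replicate for either.

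The mitochondrial members gave no change past the threshold. Bnip3, a receptor for the removal of mitochondria, had 0, 106 and 189 after injury, against 55.9, 93.2 and 111 in control. Its relative Bnip3l had 97.2, 135 and 295 after injury, against 184, 176 and 193 in control. Both were below control in the CD140a(+)/Sca1(-) pair and above it in the CD140a(+)/Sca1(+) pair. Higd1a, a small protein of the respiratory chain, was abundant, with 1347, 1051 and 486 after injury, against 579, 1087 and 331 in control, and a log2 change of 0.56 ± 0.52 (SE).

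By subpopulation, the members differed in how far they moved, as all genes did. The median log2 change over the members was -0.80, -0.03 and 0.27 in the 3 subpopulations, beside -0.76, -0.23 and 0.11 over all genes tested. In CD140a(+)/Sca1(-) cells 4 members were at least 3-fold higher (11.1%, beside 8.31% of all genes) and 10 at least 3-fold lower (27.8%, beside 29.4%). In CD140a(-)/Sca1(+) cells no member was 3-fold higher (beside 1.97%) and 1, Epas1, was 3-fold lower (2.78%, beside 4.35%). In CD140a(+)/Sca1(+) cells 6 were 3-fold higher (16.7%, beside 10.4%) and 2 were 3-fold lower (5.56%, beside 6.07%). These counts compare 1 library with 1 on the deposited scale.

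Each subpopulation was also set against the mean of the other 2 with limma over both states. CD140a(-)/Sca1(+) cells were higher in Hif1a, by 1.71 ± 0.54 on the log2 scale (SE), and in Pfkfb3, by 1.68 ± 0.67, so that 2 members (5.56%) were called higher, beside 1.33% of all genes, and none lower, beside 0.283%. Both passed without the injured CD140a(+)/Sca1(-) library, at 1.95 and 1.92, but Hif1a lost its call when any 1 of the other 5 libraries was left out, and Pfkfb3 when any of those 5 but the injured CD140a(-)/Sca1(+) library was. Their differences ran between 1.31 and 2.12 and between 0.59 and 2.78 when 1 library was left out. CD140a(+)/Sca1(-) cells were lower in Bnip3 (-2.72 ± 0.95), Epas1 (-2.01 ± 0.76), Pfkl (-1.93 ± 0.61) and Pdk1 (-1.61 ± 0.59), 4 members (11.1%), beside 3.73% of all genes. None of these 4 calls held without the injured CD140a(+)/Sca1(-) library, where the differences were -0.75, -0.65, -1.11 and -0.88, and each was also lost without at least 1 other library. No member was called higher in CD140a(+)/Sca1(-) cells, beside 0.657% of all genes. None was called in CD140a(+)/Sca1(+) cells, beside 1.32% higher and 0.47% lower, and the lowest adjusted p in limma for a member was 0.615.

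Other genes of glucose use and of the hypoxia response were taken from wider lists. Of 20 further glycolysis genes tested, Bpgm alone rose and none fell. Bpgm, which makes 2,3-bisphosphoglycerate, had 187, 44.3 and 90.6 after injury, against 17.3, 4.50 and 14.1 in control, with a log2 change of 2.30 ± 0.50 (SE). No gene of the 10 tested for entry of pyruvate into mitochondria passed the threshold.

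The pentose phosphate pathway, which branches from glucose 6-phosphate to make NADPH and ribose, had 3 of its 7 tested genes fall and none rise, with a median log2 change of -1.27. Taldo1, transaldolase, had 101, 70.2 and 304 after injury, against 4826, 469 and 1612 in control, and a log2 change of -3.45 ± 0.74 (SE). Pgd, phosphogluconate dehydrogenase, had 486, 232 and 403 after injury, against 1555, 659 and 1699 in control. Tkt, transketolase, had 25.5, 291 and 207 after injury, against 752, 607 and 392 in control, a call that was lost without the CD140a(+)/Sca1(-) pair. All 3 lay lower after injury with no overlap between the states. The pathway took 0.0355%, 0.0360% and 0.0531% of normalized counts in injured cells, against 0.349%, 0.0903% and 0.184% in controls. Red blood cell transcripts were also lower in these libraries. Of the 5 markers listed 4 fell, with a sum of 0 to 665 normalized counts after injury, against 695 to 12159 in control, and all 5 were at 0 in the injured CD140a(+)/Sca1(-) library. Their part in the result was not tested.

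Of 38 further hypoxia-responsive genes tested, 3 rose and 4 fell, and the median log2 change was 0.23. Lox, the collagen cross-linking oxidase, rose most, with 1320, 1141 and 334 after injury, against 89.9, 83.2 and 31.8 in control, a log2 change of 3.44 ± 0.49 (SE). Nrn1 rose by 1.67 ± 0.64 on that scale. Pgf, placental growth factor, had 0, 7.39 and 5.48 after injury, against 30.3, 98.2 and 149 in control, with a log2 change of -2.96 ± 0.49 (SE). Cxcr4, a chemokine receptor, had 0, 3.36 and 5.83 after injury, against 14.1, 45.4 and 49.4 in control. Hmox1, heme oxygenase, had 4.91, 40.1 and 12.2 after injury, against 164, 82.7 and 116 in control. Insig2, a sterol sensor partner, fell by 1.76 ± 0.65 on the log2 scale, a call that was lost without the CD140a(+)/Sca1(-) pair. Leukocyte markers, by contrast with the endothelial ones, had 1 of 10 rise, Lyz2, and none fall. Their summed level was 889, 390 and 281 after injury, against 180, 427 and 84.5 in control. The sum was thus higher in both CD140a(+) subpopulations and lower in CD140a(-)/Sca1(+) cells. The part of these markers in the results above was not tested.

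**Figure D4:**
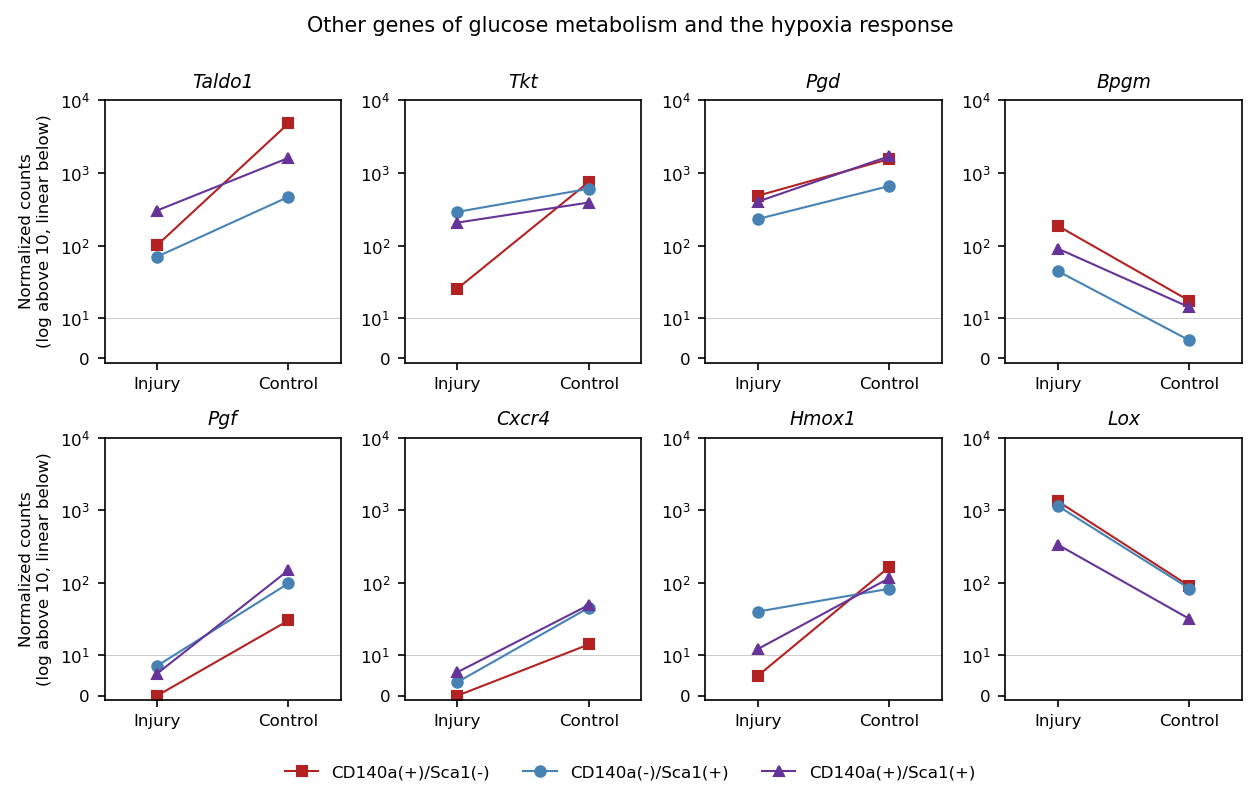
Normalized counts of further genes of the pentose phosphate pathway, of Bpgm and of further hypoxia-responsive genes in the 6 libraries, Injury left and Control right, on an axis that is logarithmic above 10 and linear below, with a line for each subpopulation. Taldo1, Tkt, Pgd, Pgf, Cxcr4 and Hmox1 lie lower after injury in each subpopulation, whereas Bpgm and Lox lie higher.

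The counting limits some members more than others. Values were whole numbers of reads, within 0.02 reads, in all 6 libraries for 18 members of the 36, among them Epas1, Egln3, Tpi1 and Pgam1, and for 45.3% of all genes tested. For 15 members they were whole in no library, among them Eno1, Hif1a, Slc16a3, Ldha, Gapdh, Pkm and Aldoa, as arises when reads are divided between genes, and their levels are uncertain to that extent. All 36 members passed the filter on low values, 22 of them averaged at least 100 normalized counts and 5 averaged under 10.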

How the data were processed

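RNA of 6 sorted libraries was read from its 3' ends (QuantSeq, Ion Proton). Reads were trimmed by the authors (FastX-Toolkit), mapped with STAR and BRB-seqtools to the mouse genome GRCm38 and normalized in DESeq2. What they deposited is on a log2 scale and has the form of the DESeq2 variance-stabilizing transformation, although the sources used here do not name it. It was inverted to normalized counts, and the step between low values gave the size of 1 read. Of low values, 55.9% to 63.8% per library were whole reads within 0.02, so count models were not run. Of the identifiers, 22453 of 22483 were matched to GENCODE M21 or a table of gene names.

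A filter required an 80th percentile of at least 8 for the linear deposited value and left 15532 genes. A gene without reads stands at 5.93 on that scale, so the filter lies just above the floor. Injury was compared with control by limma 3.58.1 (R 4.3.3) on the deposited log2 values, with subpopulation as block. Subpopulations were compared with state as block. P-values are two-sided, adjusted by Benjamini-Hochberg, and measure the spread between subpopulations only. Fitted changes use the deposited scale, which understates changes of low genes, whereas folds within a subpopulation use normalized counts. A level of 0 was set to 3 reads for bounds. Such a bound covers read sampling only, and not the excess of zeros in the injured CD140a(+)/Sca1(-) library. Figures used matplotlib 3.10.9, and the fit was tested on simulated data.

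The members and lists were chosen with earlier results of these data known. From the wider lists every gene past the threshold was named, and otherwise counts are given. The result of 1 gene that this rule covers is not reported here. Alternatives changed the scale, pseudocount, filter, scaling, variance prior and block, and left out each pair. One more, a filter on normalized counts together with the omission of the CD140a(+)/Sca1(-) pair, was chosen after seeing the data.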

Additional observations from a re-analysis of the deposited data

Results flagged for a closer look

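Mxi1 went in opposite directions in the subpopulations, with a log2 ratio of injury to control of 1.20 in CD140a(-)/Sca1(+) cells and -3.34 in CD140a(+)/Sca1(-) cells. Each ratio compares 1 library with 1, and the difference was not tested. The negative ratio rests on 4.02 reads in the injured CD140a(+)/Sca1(-) library. On the deposited scale the same changes were 0.91 and -1.96.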

How the results depend on the processing

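Epas1 passed the threshold in all 12 alternatives, whereas Eno1 passed in 10, Slc16a3 and Egln3 in 6 each and Hif1a in 3. On log2 of the normalized count plus 1, 1 member rose and 4 fell, with 866 of all genes lower, and with a pseudocount of 0.5 again 1 rose and 4 fell, with 907 of all genes lower, against 357 higher and 537 lower on the deposited scale. Scaling on well-measured genes left 1 member higher, and quantile normalization and a trended prior each left 1 lower. Ddit4 turned to 0.22 under quantile normalization. Of all calls 39.9% were rises, against 25.8% and 21.1% with pseudocounts of 1 and 0.5, and 52.5% without the CD140a(+)/Sca1(-) pair, and the median log2 change over all genes was -0.33, -0.58, -0.73 and -0.05. Genes at an adjusted p under 0.05 in limma were 15 with the filter on normalized counts, 95 with a trended prior, 73 without the CD140a(+)/Sca1(-) pair and 193 with that filter and without that pair.

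Same-subpopulation libraries did not deviate together (correlations of -0.005, 0.07 and -0.01), and without the replicate block 2 members rose and 2 fell, as did 337 and 485 of all genes, with Hif1a lost (p = 0.0674 in limma).

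Leaving out a pair gave 183 to 456 genes higher and 412 to 563 lower, and 0 to 2 members higher and 1 to 2 lower, and with the filter on normalized counts the omission of the CD140a(+)/Sca1(-) pair gave 461 and 399 genes, 0 members higher, 1 lower and a change of 0.035 for Hk2. Members whose sign turned among these had log2 changes of -1.09 to 0.48 (Slc2a1), -0.52 to 0.40 (Hk1), -0.23 to 0.14 (Hk2), -0.39 to 0.12 (Gpi1), -0.15 to 0.90 (Pfkm), -0.98 to 0.10 (Pfkp), -0.30 to 0.13 (Aldoa), -0.68 to 0.026 (Aldoc), -0.38 to 0.20 (Gapdh), -0.67 to 0.071 (Pgk1), -1.25 to 0.17 (Pkm), -0.43 to 0.40 (Egln1), -1.67 to 0.44 (Bnip3), -0.60 to 0.11 (Bnip3l), -0.79 to 0.86 (Ddit4) and -1.32 to 0.12 (Mxi1).

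For all genes by subpopulation, CD140a(+)/Sca1(-) cells had 102 higher and 579 lower, which became 947 lower with a pseudocount of 1, 53 higher and 1004 lower with 0.5, and 193 higher under quantile normalization. CD140a(-)/Sca1(+) cells had 206 higher and 44 lower, which became 311 higher with 0.5 and 80 lower under quantile normalization. CD140a(+)/Sca1(+) cells had 205 higher and 73 lower, which became 315 and 48 with 0.5. Leaving out 1 library moved these to 24 to 852 and 197 to 4333, 52 to 1551 and 29 to 251, and 63 to 1578 and 20 to 352. The causes were not tested. The lone libraries of such fits are assumed to vary like the others. At a depth of 2094353 reads, that of the injured CD140a(+)/Sca1(-) library, 3 reads equal 2.94 normalized counts, so for members near that level a difference was not detectable. In this library 928 of 5274 genes well measured in the others were at 0, so members well above that level could be missed too.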
